A study of Mus musculus with 12 samples.

Results

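Sox11, Stmn2, Elavl4, Rbfox1 and Basp1 are 5 genes best known from developing and mature neurons, and they were followed here in cells of a pancreatic β-cell line. They were chosen with earlier results of these arrays known, because probe sets for them stood high in Pr-HP cells, the parental MIN6 cells at high passage. All probe sets whose platform annotation gives exactly 1 of these symbols were taken, which made 17 of 36701 probe sets and 5 of 15964 genes. MIN6 is a line from an insulinoma of a mouse that carried the SV40 T antigen in islet β cells, and it releases insulin when glucose rises. The study compared parental MIN6 cells at 35 to 40 passages (Pr-HP), cells of the subclone MIN6 clone 4 at 40 to 50 passages (C4-HP), the same subclone at 17 to 20 passages (C4-LP) and parental cells at 17 to 20 passages (Pr-LP). Clone 4 came from a low-passage parental culture by limiting dilution, so it stands for 1 clone, and all 4 populations grew in the same high-glucose medium. The study grouped C4-HP, C4-LP and Pr-LP as responder cells, which raise insulin secretion with glucose, and Pr-HP as non-responder cells. RNA of each population was read on 3 Affymetrix mouse chips of the U74 version 2 design, named A, B and C, with 1 array per chip and 12 arrays in all. No value for Pr-HP therefore carries an error, and precision is limited throughout by having so few arrays.

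The members act at different steps of building a neuron. Sox11 is a transcription factor of the SoxC family that is active in newborn neurons. Elavl4 (HuD) binds AU-rich stretches of messenger RNA and stabilises them, and Rbfox1 regulates alternative splicing in neurons and muscle. Stmn2 (SCG10) binds tubulin and keeps microtubules dynamic in growing axons, and Basp1 is a lipid-anchored protein on the inner face of growth cone membranes. β cells share part of their secretory and transcriptional programme with neurons, and both keep the neuronal gene silencer REST low. Here both Rest probe sets lay under the chip's 40th percentile in all 4 populations, with 65.8 units in Pr-HP, 56.7 in C4-HP, 59.7 in C4-LP and 53.3 in Pr-LP on chip A and with 56.7, 64.5, 51.0 and 51.4 units in the same order on chip B.

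The values are linear intensities, 1 per probe set and array, and levels are compared only within a probe set, apart from the summed levels of marker lists. Array medians were nearly equal, at 214 to 216 units on chip A, 162 to 163 on chip B and 92.5 to 92.9 on chip C. The 20th percentile of each chip (67.3, 58.6 and 29.1 units on A, B and C) served as a floor for folds, and probe sets over the 40th percentile (153, 122 and 66.5 units) on at least 1 array entered the comparisons, 23340 in all. β-cell markers were present in every population, Ins2 with 15526 units in Pr-HP, 14920 in C4-HP, 15461 in C4-LP and 14771 in Pr-LP, and Pdx1 with 519, 570.0, 592 and 701 units in that order. Signals as bright as that of Ins2 can exceed the linear range, which was not tested on these arrays, so its even values are no measure of an even level. The study raised the same limit and turned to quantitative RT-PCR. By that method it reports no significant difference in Ins2 between the populations, but a much lower level of Ins1 in Pr-HP than in responder cells. Of 6 measured genes of the β-cell list none passed limma (0 also at an unadjusted p under 0.05), though Pcsk1 was 2.12-fold in Pr-HP (1379 units in Pr-HP, 771 in C4-HP, 760 in C4-LP and 425 in Pr-LP, limma adjusted p = 0.522) and Slc2a2 had a log2 ratio of -0.85 (499, 1754, 464 and 478 units in that order, limma adjusted p = 0.889). As a sign of RNA quality, the Gapdh controls gave a 3′/5′ signal ratio of 0.867 in Pr-HP against 0.968 to 1.05 in the responder cells on chip A. On chip B it was 0.953 in Pr-HP against 1.01 to 1.09, and on chip C 1.16 against 1.19 to 1.31. For Actb the ratio was 1.15 in Pr-HP against 1.25 to 1.42 on chip A and 1.28 against 1.39 to 1.42 on chip B, while on chip C the Pr-HP value of 1.34 lay inside the responder range of 1.30 to 1.42. Its part in the results was not tested. These are bulk cultures, in which a few cells with much of an RNA and many cells with little of it cannot be told apart.

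As the members had been selected on the same contrast, the DNA before their start sites is shown to describe what they have in common beyond that choice. The 250 bases before the annotated start are printed in the direction of transcription, from RefSeq on build GRCm38.p6, for the 4 members found in the table, while Stmn2 is named only. Sox11 lies at chr12:27342719-27342968 (minus strand), Elavl4 at chr4:110351912-110352161 (minus strand, the most upstream of 4 starts), Rbfox1 at chr16:5884543-5884792 (plus strand, the most upstream of 2 starts) and Basp1 at chr15:25413765-25414014 (minus strand). Capitals mark, on either strand, the GC box GGGCGG, the CCAAT box CCAAT, the TATA box TATAAA and the SOX motif AACAAT.
Sox11: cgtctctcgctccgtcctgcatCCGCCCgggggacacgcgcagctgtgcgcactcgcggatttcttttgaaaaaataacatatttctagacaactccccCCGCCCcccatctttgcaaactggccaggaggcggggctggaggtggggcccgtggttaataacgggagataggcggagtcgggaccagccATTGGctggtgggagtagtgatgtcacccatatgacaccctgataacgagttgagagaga
Elavl4: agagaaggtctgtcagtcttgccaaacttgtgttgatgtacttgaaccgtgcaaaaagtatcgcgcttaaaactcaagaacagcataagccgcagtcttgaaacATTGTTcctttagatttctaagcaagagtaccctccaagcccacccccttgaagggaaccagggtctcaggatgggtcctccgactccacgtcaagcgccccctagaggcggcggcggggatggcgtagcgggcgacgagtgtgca
Rbfox1: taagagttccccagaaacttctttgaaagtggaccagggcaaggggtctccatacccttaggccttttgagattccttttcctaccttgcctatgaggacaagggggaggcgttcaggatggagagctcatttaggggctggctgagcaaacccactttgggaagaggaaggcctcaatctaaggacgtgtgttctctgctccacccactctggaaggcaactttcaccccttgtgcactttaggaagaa
Basp1: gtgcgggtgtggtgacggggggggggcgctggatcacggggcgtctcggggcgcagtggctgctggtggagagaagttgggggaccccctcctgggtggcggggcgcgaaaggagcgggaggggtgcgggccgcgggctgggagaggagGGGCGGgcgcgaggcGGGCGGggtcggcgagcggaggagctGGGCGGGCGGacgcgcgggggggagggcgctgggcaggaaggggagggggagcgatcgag
The 4 windows differed in composition and in motifs. Basp1 had 78.8% G and C, 30 CpG dinucleotides and 4 GC boxes, of which 2 overlap, and Sox11 had 58% G and C, 17 CpG dinucleotides, 2 GC boxes and 1 CCAAT box. Elavl4 had 53.6% G and C, 14 CpG dinucleotides and 1 SOX motif, and Rbfox1 had 51.2% G and C, 2 CpG dinucleotides and none of the 4 motifs. Over all 27025 promoter windows the median was 52% G and C with 6 CpG dinucleotides, and 33.0% of the windows held a GC box, 34.5% a CCAAT box, 13.0% a TATA box and 9.62% a SOX motif. A match is a description of the letters, and the lack of one says only that these letters are not in this window.

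Sox11 stood high in Pr-HP cells on all 3 chips and was nearly even among the responder cells. The responder means of 117310_at on chip B and 130532_at on chip C lay over the array medians of 162 to 163 and 92.5 to 92.9 units. Probe set 101631_at on chip A gave 1354 units in Pr-HP, 122 in C4-HP, 127 in C4-LP and 100.4 in Pr-LP. The Pr-HP value was 11.6-fold the responder mean of 116 ± 14.2 (SD over the 3 responder populations), and 10.7- to 13.5-fold over the single responder values. This ratio ranked 4 of 7887 probe sets on chip A. On chip B, 117310_at gave 824 units in Pr-HP, 275 in C4-HP, 259 in C4-LP and 249.8 in Pr-LP, which is 3.15-fold the responder mean of 261 ± 13.0 and rank 28 of 7965. On chip C, 130532_at gave 707 units in Pr-HP, 154 in C4-HP, 148 in C4-LP and 143 in Pr-LP, which is 4.75-fold the responder mean of 149 ± 5.38 and rank 6 of 7488. In each of these sets Pr-HP stood clear of 3 responder values that lay close together. The set 93669_f_at, of a kind that can bind a family of related transcripts, gave 172 units in Pr-HP, 21.9 in C4-HP, 25.1 in C4-LP and 22.7 in Pr-LP, all 3 responder values being under the floor, so Pr-HP was at least 2.56-fold higher. The remaining set, 117084_at, was under the floor in every population (47.7, 46.4, 45.4 and 41.1 units in Pr-HP, C4-HP, C4-LP and Pr-LP) and showed no fold.

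The RNA-binding members Elavl4 and Rbfox1 were also highest in Pr-HP, Elavl4 by a smaller ratio. For Elavl4, 163986_at on chip B gave 836 units in Pr-HP, 231 in C4-HP, 321 in C4-LP and 283 in Pr-LP, a 3.01-fold ratio to the responder mean of 278 ± 45.0. On chip A, 92361_at gave 179 units in Pr-HP, 72.6 in C4-HP, 117 in C4-LP and 76.9 in Pr-LP. Its ratio to the mean of 88.8 ± 24.5 was 2.02-fold, and over the single responder values it ran from 1.53- to 2.47-fold. On chip C, 137513_at gave 211 units in Pr-HP, 105 in C4-HP, 138 in C4-LP and 151 in Pr-LP, 1.61-fold the mean of 132 ± 23.6. All 3 Elavl4 sets thus had Pr-HP as the highest population and C4-HP as the lowest. Rbfox1 had 1 set over the entry limit, 163632_at on chip B, with 341 units in Pr-HP, 60.3 in C4-HP, 77.4 in C4-LP and 62.8 in Pr-LP. Pr-HP was 5.10-fold the responder mean of 66.9 ± 9.22 and ranked 8 of 7965, with the responder values near the floor of 58.6 units. Its second set, 116949_at, gave 102 units in Pr-HP, 65.4 in C4-HP, 79.3 in C4-LP and 64.7 in Pr-LP, a 1.46-fold ratio that was not entered because no array reached the 40th percentile.

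Of the members that act in the growing axon, Stmn2 followed Sox11, whereas Basp1 did not. Stmn2 probe set 95670_at on chip A gave 845 units in Pr-HP, 89.0 in C4-HP, 79.8 in C4-LP and 67.0 in Pr-LP, so Pr-HP was 10.7-fold the responder mean of 78.6 ± 11.0 and ranked 5 of 7887. The set 95669_g_at gave 1851 units in Pr-HP, 299.5 in C4-HP, 322 in C4-LP and 249.8 in Pr-LP, which is 6.37-fold the mean of 291 ± 37.0 and rank 12. The third set, 95668_at, gave 75.9 units in Pr-HP, 63.4 in C4-HP, 64.7 in C4-LP and 66.3 in Pr-LP, and did not enter. The 2 entered sets of Stmn2 therefore had Pr-HP far above responder values that differed by less than 1.5-fold among themselves.

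Basp1 probe set 95673_s_at, of a kind shared by several transcripts, formed a ladder in place of a step. It gave 1283 units in Pr-HP, 710.2 in C4-HP, 299 in C4-LP and 159 in Pr-LP. Pr-HP was 3.29-fold the responder mean of 389 ± 287, but this ratio ran from 1.81-fold over C4-HP to 8.07-fold over Pr-LP. On the log2 scale the ratio was 1.72, and 2.48 when C4-HP was left out. The other Basp1 sets on the entry list were nearly level. The set 95674_r_at, chosen by the manufacturer under relaxed rules, gave 3183 units in Pr-HP, 2833 in C4-HP, 2729 in C4-LP and 2839 in Pr-LP (1.14-fold), and 163510_at on chip B gave 300.0, 268, 263 and 278 units in the same order (1.11-fold). The remaining set, 107420_at, did not enter, with 89.2 units in Pr-HP, 47.8 in C4-HP, 40.9 in C4-LP and 32.8 in Pr-LP. Its responder values were under the floor and have no order, so that Pr-HP was at least 1.52-fold higher. Which of the 4 sets follows the Basp1 transcript in these cells was not tested.

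**Figure D1:**
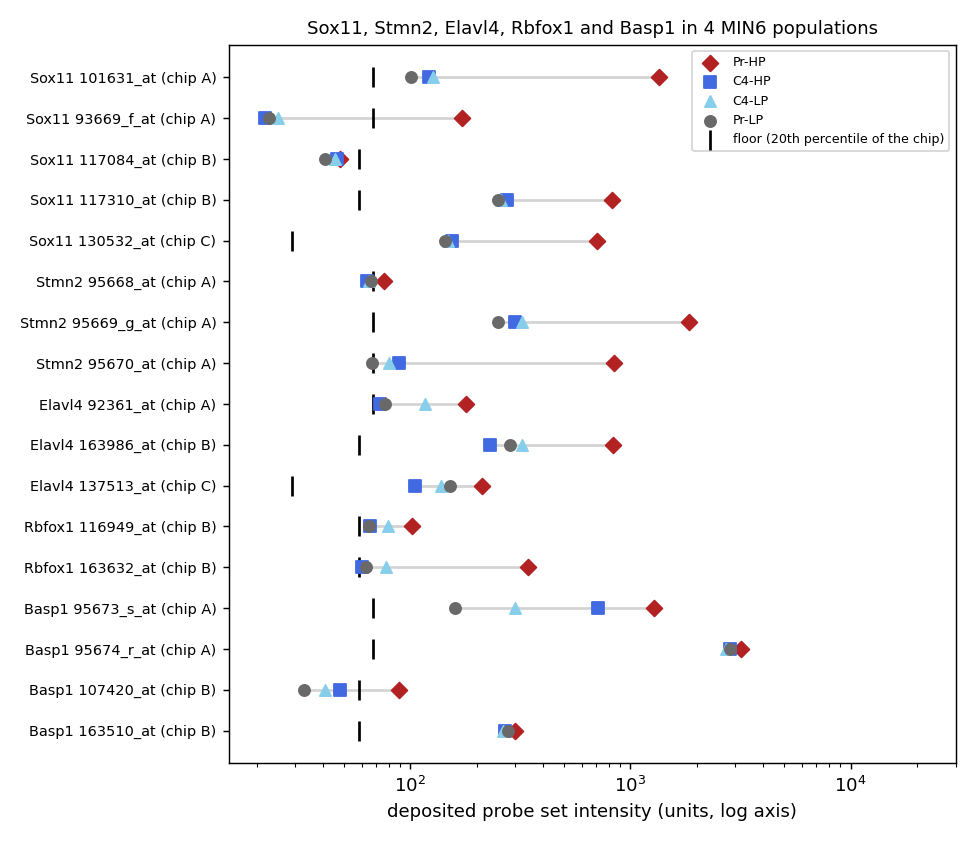
Intensity of the 17 member probe sets (rows) on a log axis in deposited units, with 1 point for each population and a black tick at the floor of the chip. The Pr-HP diamonds lie to the right in all 13 entered sets, and for Basp1 95673_s_at the populations spread between 1283 units in Pr-HP and 159 units in Pr-LP.

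Of the 17 probe sets 13 entered the comparisons, and 4 did not reach the 40th percentile on any array. Pr-HP was the highest population in all 13. Its value was over 2-fold the responder mean in 10, over 3-fold in 8 and over 5-fold in 4, and over 2-fold each single responder value in 8. Every one of the 5 genes had at least 1 set past 2-fold. Of all entered probe sets 1.16% passed 2-fold and 0.111% passed 5-fold in this direction. The choice of members fixed this excess, which is a description and was not tested. The median log2 ratio of the 13 sets was 1.66, against -0.01 over all entered sets. Ordered by their highest ratio, the genes ran Sox11 (11.6-fold), Stmn2 (10.7-fold), Rbfox1 (5.10-fold), Basp1 (3.29-fold) and Elavl4 (3.01-fold). Of these neighbours only Stmn2 and Rbfox1 have ranges over single responder values that do not overlap (9.49- to 12.6-fold and 4.41- to 5.65-fold). The range of Sox11, 10.7- to 13.5-fold, overlaps that of Stmn2, and the range of Basp1, 1.81- to 8.07-fold, contains those of Rbfox1 and Elavl4 (2.61- to 3.62-fold). The order of the last 3 genes also moved with the processing, since the log2 ratio of Rbfox1 163632_at, 2.35, was 1.49 with the floor at the 40th percentile, under the 1.72 of Basp1 and the 1.59 of Elavl4, and without C4-HP it was 2.28 against 2.48 for Basp1. Different probe sets of 1 gene differed more than these neighbours, as the 3.15-fold and 11.6-fold ratios of Sox11 show.

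High and low passage can also be set against each other within clone 4, a lineage that kept its insulin response. The choice of members used both clone 4 populations only as part of the responder mean, not their difference. With 1 array for each population there is no test here. Moreover 5 of the 13 entered sets (Sox11 101631_at and 93669_f_at, Stmn2 95670_at, Elavl4 92361_at and Rbfox1 163632_at) passed the 40th percentile in Pr-HP alone, so their clone 4 differences lie between dim values. Of the 13 entered sets 6 were higher in C4-HP than in C4-LP, 6 were lower and 1 was at the floor in both, and the median log2 difference was 0.00. Of the 8 sets that passed the 40th percentile in a responder population too, 5 were higher and 3 lower. Over all entered sets the median was 0.00 and the 5th to 95th percentiles ran from -0.44 to 0.39. Only Basp1 95673_s_at passed 2-fold, being 2.37-fold higher in C4-HP than in C4-LP (log2 difference 1.25), where 0.403% of all entered sets passed 2-fold higher. No member set passed 2-fold lower in C4-HP, where 0.9% of all sets did. The Elavl4 sets came next, with C4-HP at 0.620, 0.720 and 0.763 times C4-LP on chips A, B and C (log2 -0.69, -0.47 and -0.39), and 2 of these values lie outside the range given for all sets. Sox11 and Stmn2 sets differed little between C4-HP and C4-LP, with log2 differences between -0.11 and 0.16.

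**Figure D2:**
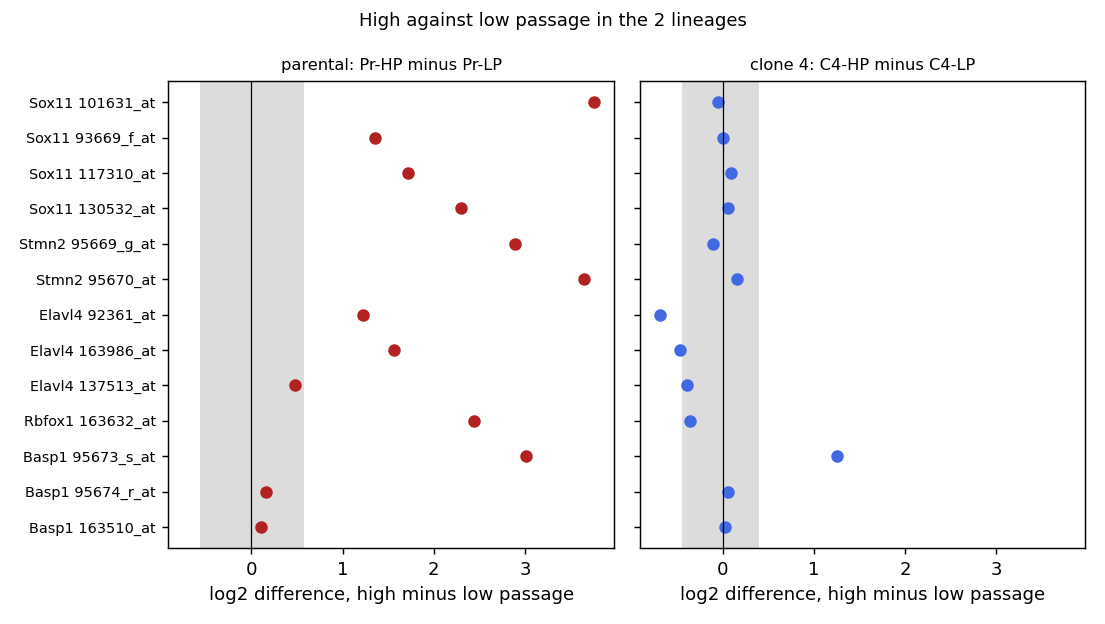
Log2 difference between high and low passage for the 13 entered member probe sets, in parental cells (left, Pr-HP minus Pr-LP) and in clone 4 (right, C4-HP minus C4-LP), with grey bands from the 5th to the 95th percentile of all entered sets. In parental cells 10 sets lie past 1 on the axis, where 1.77% of all entered sets do. The members were chosen for a high level in Pr-HP, so nothing is read from that count. In clone 4 Basp1 95673_s_at lies past 1 alone, at 1.25, where 0.403% of all entered sets do. Of the 13 sets 5 passed the 40th percentile in Pr-HP alone and compare dim values in clone 4.

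In the parental lineage the same sets had a median log2 difference of 1.72 between Pr-HP and Pr-LP, and 10 of 13 were past 2-fold higher in Pr-HP, where 1.77% of all entered sets were. This contrast shares Pr-HP with the one used for the choice, and nothing is read from the count. At low passage the clone and its parent can be compared without Pr-HP. No member set passed 2-fold between C4-LP and Pr-LP, where 1.67% of all entered sets were higher and 0.977% lower in C4-LP by that measure. The 5 sets that passed the 40th percentile in Pr-HP alone, Elavl4 92361_at among them, compare dim values here as well. They also count in the median, in the numbers of higher and lower sets and in the SD given here. The median log2 difference was 0.18, with 9 sets higher in C4-LP and 3 lower, against 5th to 95th percentiles of -0.49 to 0.57 over all sets. The largest differences were those of Basp1 95673_s_at (1.89-fold higher in C4-LP, log2 0.91) and Elavl4 92361_at (1.52-fold higher, log2 0.61). The SD over the 3 responder populations on the log2 scale had a median of 0.19 in the members, against 0.11 over all entered sets. Basp1 95673_s_at had an SD of 1.08, over the 95th percentile of all sets (0.45).

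The patterns were then set against each other by the Euclidean distance between the 4 centred log2 values of 2 probe sets, a measure that rests on 1 array for each population. The members had all been chosen for standing high in Pr-HP, so closeness between them follows in part from that choice and is a description. The sets 101631_at, 95670_at and 163632_at also have responder values under the 40th percentile. For Sox11 101631_at, the nearest set of any other gene on the 3 chips was Stmn2 95670_at, at a distance of 0.18. It was followed by the lysosomal glycoprotein gene Cd68 (0.31) and the carbonic anhydrase gene Car2 (0.34). Stmn2 95669_g_at was closest to Enpep (0.21), Fbp1 (0.33) and Tmcc3 (0.35), and Elavl4 163986_at to Rapgef5 (0.17), Tbcel (0.25) and Pmepa1 (0.25). Rbfox1 163632_at was closest to Tmcc3 (0.11), Gnptab (0.24) and Maf (0.28), the last a transcription factor gene. The almost level set Basp1 95674_r_at was closest to other level sets, of Vcpip1, Relch and Parva, each at 0.01. The ladder of Basp1 95673_s_at was looked up after its values had been seen. Its nearest sets were 2 of Nefl, the light neurofilament chain of axons, and 1 of the metal transporter gene Slc39a8. Nefl 103575_at (distance 0.32) gave 439 units in Pr-HP, 303 in C4-HP, 101 in C4-LP and 59.9 in Pr-LP, and Nefl 162973_at (0.69) gave 2971, 1637, 431 and 225 units in that order. Both Nefl sets thus had the order of populations seen in Basp1 95673_s_at, and the Slc39a8 set (0.69) had it as well, with 892, 455, 357 and 119.7 units.

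**Figure D3:**
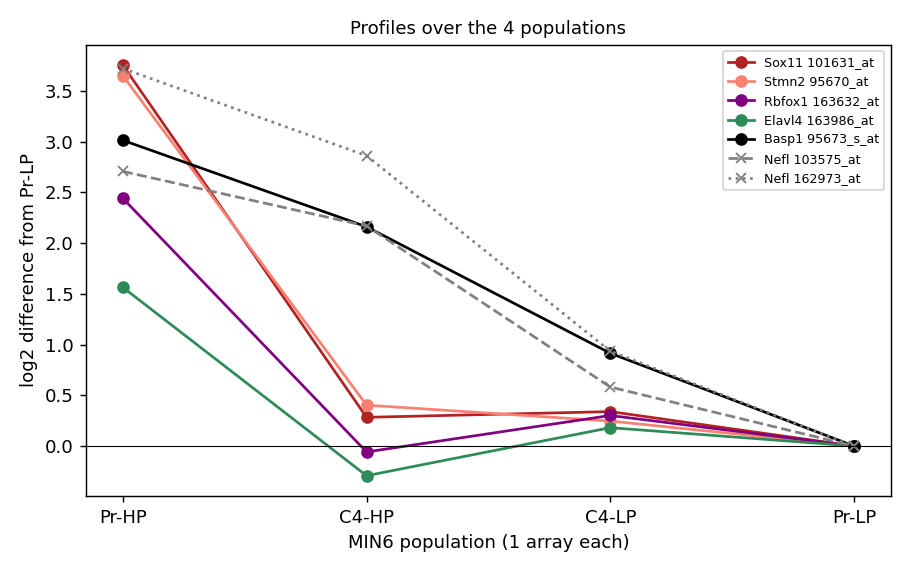
Log2 difference from Pr-LP in the 4 populations for 1 probe set of each member and for both Nefl sets, with 1 array for each point. Drawn is the entered set of each member with the highest ratio of Pr-HP to the responder mean, the contrast used for the choice. The nearly level Basp1 sets 95674_r_at and 163510_at are therefore not shown. The drawn sets of Sox11, Stmn2, Rbfox1 and Elavl4 stand apart in Pr-HP alone, whereas Basp1 95673_s_at and Nefl are also high in C4-HP.

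No close relative of the members passed 2-fold by its brightest probe set, in either direction. Of 13 family members, all measured, 7 had a log2 ratio of Pr-HP to the responder mean above 0, and the median was 0.00. They were tested with limma on log2 values, Pr-HP against the 3 responder populations, which takes the single Pr-HP array to vary like the others, and none passed an adjusted p of 0.05, while 3 were higher and 1 lower at an unadjusted p under 0.05. Sox4, another SoxC gene of developing neurons, had 698 units in Pr-HP, 817 in C4-HP, 1107 in C4-LP and 1356 in Pr-LP (log2 -0.65, limma adjusted p = 0.620). Sox12, the third SoxC gene, had a log2 ratio of -0.13. Among the stathmins, Stmn3 gave 2022 units in Pr-HP, 1237 in C4-HP, 1588 in C4-LP and 1172 in Pr-LP (1.52-fold, limma adjusted p = 0.463), and the ratio was 1.45-fold for Stmn1 and 1.30-fold for Stmn4. Of the Hu proteins, the neuronal Elavl2 gave 841 units in Pr-HP, 461 in C4-HP, 646 in C4-LP and 277 in Pr-LP (1.82-fold, limma adjusted p = 0.638), and a second set, 163064_at, was 2.06-fold. The neuronal Elavl3 was 1.16-fold and the widely expressed Elavl1 had a log2 ratio of -0.19. Rbfox3, the NeuN antigen, had a log2 ratio of 0.00 and Rbfox2 one of -0.16 by its brightest set, 161758_r_at. That set is of the kind chosen under relaxed rules, and the other entered Rbfox2 sets had log2 ratios from 0.02 to 0.36. Gap43, a growth cone protein of the same kind as Basp1, gave 136 units in Pr-HP, 230 in C4-HP, 389 in C4-LP and 119 in Pr-LP (log2 -0.86, limma adjusted p = 0.813). The related Marcks and Marcksl1 had log2 ratios of -0.25 and 0.17.

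Across wider neuronal gene lists the median log2 ratio was close to that of all entered sets, while more genes passed 2-fold higher than lower. The 6 lists, these relatives included and drawn up with results of these arrays known, hold 150 genes, of which 132 had a probe set and 123 entered. None of the 123 passed limma, where 0.0643% of all entered sets were called higher in Pr-HP and 0.0171% lower. At an unadjusted p under 0.05 in limma, 14 of the listed genes were higher and 12 lower by any of their sets. Of the 23340 single sets 2285 were under it, which counts sets and not genes, so the shares are not alike. By the brightest set 5 of the 123 genes were past 2-fold higher, where 1.16% of all entered sets were, and 3 were past 2-fold lower. By any set 8 genes were past 2-fold higher, a count for which a share of single sets is no like measure. The share of all entered sets past 2-fold lower was not computed. The 1.16% also stands beside the counts past 2-fold higher in the single lists below. For the 123 genes the median log2 ratio was -0.03 against -0.01 over all sets. The 3 genes past 2-fold higher only by another set, named after their values were seen, were Elavl2, the tubulin gene Tuba1a and Celf2. Neurod1 and Myt1, also named after their values were seen, were past 2-fold lower only by another set. Their log2 ratios by that set were -1.02 and -1.22, against -0.87 and -0.99 by the brightest set. The number of genes past 2-fold lower by any set was not computed. Of 28 axon growth and cytoskeleton genes 1 was past 2-fold higher and 1 lower by the brightest set. The higher one was the adhesion molecule gene Nrcam, with 1139 units in Pr-HP, 320 in C4-HP, 333 in C4-LP and 105 in Pr-LP (4.51-fold, limma adjusted p = 0.487), and the lower one was the axonal transport gene Fez1 (420, 607, 1232 and 737 units in that order, log2 -1.03, limma adjusted p = 0.595). Crmp1 was 1.87-fold and Cdk5r1 had a log2 ratio of -0.54. Tuba1a 100342_i_at gave 5353 units in Pr-HP, 2405 in C4-HP, 1999 in C4-LP and 2174 in Pr-LP (2.44-fold, limma adjusted p = 0.161), and its brightest set was 1.49-fold.

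None of 20 neuronal RNA-binding genes was past 2-fold by its brightest set, and Celf2 was so by another set, 114681_at, with 141 units in Pr-HP, 57.2 in C4-HP, 83.9 in C4-LP and 64.7 in Pr-LP (2.04-fold, limma adjusted p = 0.342). The brightest sets of the splicing regulator genes Celf2 and Mbnl2 had log2 ratios of 0.46 and -0.96 (limma adjusted p = 0.40 and 0.467), and those of Tia1 and Celf4 were 0.28 and -0.91. Of 21 neurogenic and neuroendocrine transcription factors 2 were past 2-fold higher and 1 lower by the brightest set. Id3 and Id1, inhibitors of basic helix-loop-helix factors, were 2.10-fold and 2.06-fold (limma adjusted p = 0.575 and 0.793), with responder values that ran from 412 to 943 units for Id3 and 121 to 1201 units for Id1. The neuroendocrine zinc finger gene Insm1 gave 489 units in Pr-HP, 1078 in C4-HP, 987 in C4-LP and 1359 in Pr-LP (log2 -1.22, limma adjusted p = 0.285). The brightest set of Myt1 had a log2 ratio of -0.99. Insm1 therefore lay below all 3 responder values without passing the test. REST corepressor genes stayed within 2-fold in all 13 cases, from -0.32 for Rcor1 and -0.28 for Sin3a to 0.24 for Hdac1 and 0.58 for Smarce1 on the log2 scale.

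Of 28 synaptic and pan-neuronal genes 2 were past 2-fold higher and 1 lower. Gad2, an enzyme of GABA synthesis also known from islets, came closest to the members. Its set 109431_at gave 426 units in Pr-HP, 56.6 in C4-HP, 54.5 in C4-LP and 72.0 in Pr-LP, a 6.76-fold ratio that did not pass the threshold (limma adjusted p = 0.0539). Its C4-HP and C4-LP values were under the floor of 58.6 units and raised to it, so both the ratio and the spread behind this p rest in part on the floor. Uchl1, a neuronal ubiquitin hydrolase, was 2.20-fold, with 1077 units in Pr-HP, 308 in C4-HP, 295 in C4-LP and 867 in Pr-LP (limma adjusted p = 0.650). Cplx2, a complexin of the secretory machinery, was lowest in Pr-HP, with 545 units against 2003 in C4-HP, 1672 in C4-LP and 1881 in Pr-LP (log2 -1.76, limma adjusted p = 0.0779). The study reports it by quantitative RT-PCR as high in the responder cells and weak in Pr-HP.

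**Figure D4:**
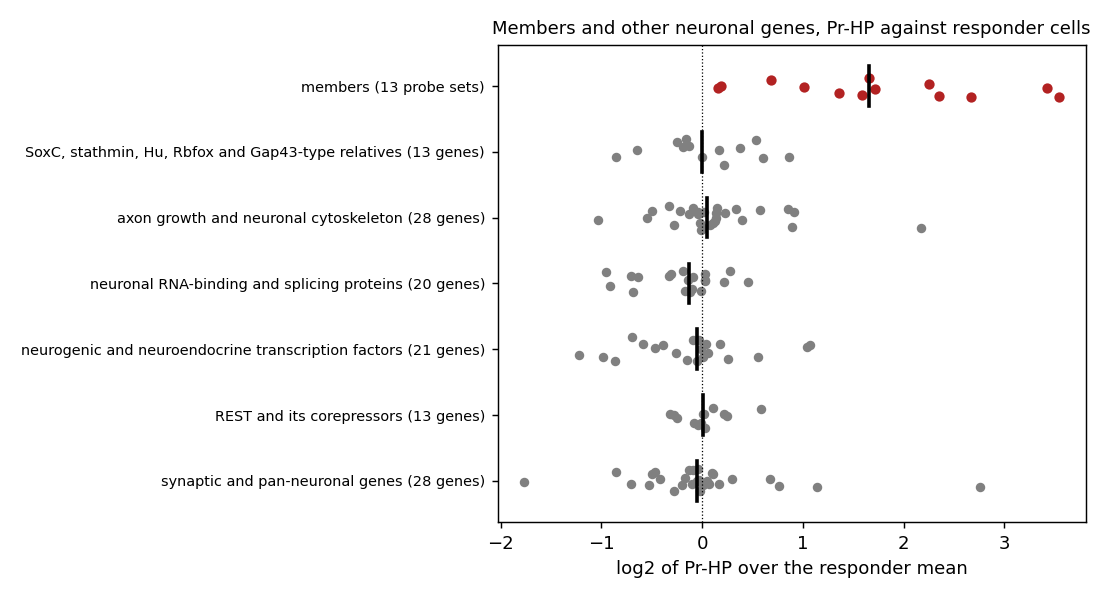
Log2 ratio of Pr-HP to the responder mean for the 13 entered member probe sets (top row) and for the genes of 6 neuronal lists by their brightest probe set, with a black bar at each median and a dotted line at the median of all entered sets. Median ratios of the lists lie between -0.13 and 0.05, against 1.66 for the members, which had been chosen on this ratio.

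Markers of other cells were read beside these results. All 9 genes of a neuron list entered and none passed limma, with 1 higher and 0 lower at an unadjusted p under 0.05. Their median log2 ratio was 0.00 and their summed level was 6515 units in Pr-HP against 5233 to 6793 in the responder cells. Dcx, a microtubule protein of migrating neurons, gave 1371 units in Pr-HP, 1628 in C4-HP, 1353 in C4-LP and 535 in Pr-LP. The summed level of a glial list was 1344 units in Pr-HP against 1374 to 1402 in the responder cells. A macrophage list of 6 genes had 1 call, the lysosomal gene Cd68, with 1785 units in Pr-HP, 196 in C4-HP, 210 in C4-LP and 177 in Pr-LP (log2 3.20, limma adjusted p = 0.0446). This call rests on 1 Pr-HP array and was lost with the floor at the 40th percentile, with the cell population as a block, without Pr-LP and without C4-HP, where limma made 0 calls over all sets. The summed level of the list, carried by Cd68, was 2428 units in Pr-HP against 844 to 869 in the responder cells. Adgre1, Csf1r, Lyz2 and Itgam of that list stayed under the 40th percentile on every array, and Cd14 was level, with 643 units in Pr-HP, 650.2 in C4-HP, 634 in C4-LP and 692 in Pr-LP. Glucagon, the alpha cell hormone, stood higher in Pr-HP by its values. The brighter Gcg set gave 10552 units in Pr-HP, 2915 in C4-HP, 3175 in C4-LP and 502 in Pr-LP (limma adjusted p = 0.562). By quantitative RT-PCR the study reports Gcg, Car2 and Maf as high in Pr-HP and weak in the responder cells. The other 2 entered genes of the alpha cell list lay the other way, with log2 ratios of -2.73 for Ttr (248 units in Pr-HP, 1362 in C4-HP, 3135 in C4-LP and 435 in Pr-LP) and -0.52 for Irx1, and the median of the list was -0.52. The part of Cd68 and Gcg in the levels of the members was not tested.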

How the data were processed

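Total RNA of the 4 populations was labelled with biotin and hybridised to chips A, B and C, with 12488, 12477 and 11934 probe sets. The deposited files hold 1 intensity per probe set and array on a linear scale, as deposited by the authors. The study's methods name Affymetrix GeneChip software, but the sources used here do not give how these values were summarised or scaled, and the values were used unscaled because the 4 arrays of a chip have nearly the same distribution. No detection call was used. Sequencing depth does not apply, and precision is limited by 1 array per population and chip.

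Control probe sets (198) were left out. Of the others 29131 carry 1 gene symbol in the platform annotation, 724 several and 6846 none. Only sets with 1 symbol were named. Values under the chip's 20th percentile over its 4 arrays were raised to it, and folds are Pr-HP over the arithmetic mean of C4-HP, C4-LP and Pr-LP. A fold is given as at least N-fold where that mean was under the floor. The members were chosen for a high level in Pr-HP, so that no test was run on them in that contrast. Genes of the lists that are not members were tested with lmFit and eBayes of limma 3.58.1 (R 4.3.3) within each chip on log2 values, with Benjamini-Hochberg adjustment over all 23340 entered sets. The fit has 2 residual degrees of freedom and between 1.93 and 2.47 prior degrees of freedom, and was tested on simulated data. The responder group joins 3 populations, of which C4-HP and C4-LP are the same clone at different passages. The p-values set the single Pr-HP array against the spread between these populations, which are not independent replicates. A gene with several sets counts as called if any set passes, and its ratio is that of the set with the highest mean.

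Named are all member sets, all family relatives, from each other list the calls and the 2 genes with the largest ratio in each direction, and the 3 nearest patterns for the brightest set of each member. The members and lists were chosen with earlier results of these data known. Tables and plots were made in Python 3.11.15 with pandas 2.3.3. Alternatives were other floors, quantile normalization, a geometric mean, no filter, other fold thresholds, leaving out each responder population, and the cell population as a block.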

Additional observations from a re-analysis of the deposited data

Results flagged for a closer look

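For 6 probe sets of 4 members the log2 difference between high and low passage was positive in parental cells and negative in clone 4. Members were chosen for a high level in Pr-HP, and all 13 entered sets were higher there than in Pr-LP. The flag therefore marks only the sign in clone 4, where 6 sets were higher and 6 lower in C4-HP. Sox11 101631_at, Elavl4 92361_at and Rbfox1 163632_at passed the entry limit in Pr-HP alone. Their clone 4 differences thus lie between dim values. Whether the lineages differ was not tested because each population has 1 array. In clone 4 (C4-HP minus C4-LP) the differences were -0.69, -0.47 and -0.39 for Elavl4 92361_at, 163986_at and 137513_at, against 1.22, 1.56 and 0.48 in parental cells (Pr-HP minus Pr-LP). Rbfox1 163632_at had -0.36 in clone 4 and 2.44 in parental cells. Sox11 101631_at (-0.06 in clone 4, 3.75 in parental cells) and Stmn2 95669_g_at (-0.11 and 2.89) were nearly level in clone 4, and other Sox11 and Stmn2 sets lay between 0.00 and 0.16 there.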

How the results depend on the processing

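All 5 genes kept a probe set past 2-fold under every alternative floor, scaling and mean and without any 1 responder population, and no log2 ratio of a member set changed sign. The number of member sets past 2-fold was 10, between 9 and 10 when a responder population was left out, 8 with the floor at the 40th percentile, 8 at a 3-fold threshold and 4 at a 5-fold threshold. At a 1.5-fold threshold 2 sets in place of 1 differed between C4-HP and C4-LP, and 2 in place of 0 between C4-LP and Pr-LP. The higher floor moved low sets most by construction, as it gave log2 ratios of 0.17 for Sox11 93669_f_at, 0.23 for Elavl4 92361_at, 1.49 for Rbfox1 163632_at and 2.47 for Stmn2 95670_at. With the floor at 1.0 unit, the ratio of Sox11 93669_f_at was 2.89. Of the listed genes none passed limma in the reported fit or without any 1 responder population, and 2 did without the filter on low values (Gad2 166542_at and Nsg1 101099_at, at most 35.2 and 80.8 units). Over all sets limma called 19, 32 with the floor at 1.0 unit, 0 at the 40th percentile, 26 after quantile normalization, 108 without the filter, 0 with the cell population as a block, 0 without Pr-LP, 3 without C4-LP and 0 without C4-HP, so the Cd68 call was lost in the fits with 0. At an unadjusted p under 0.05 these fits with 0 calls had 2511, 2606, 2446 and 1696 sets, in that order. No paired analysis was possible because each group has 1 array per chip, so that the groups share 1 replicate number only.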

Other observations

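The 2 genes for GABA-synthesising enzymes were high in different parental populations. Gad2 109431_at stood high in Pr-HP, as given above. Gad1 103061_at gave 49.4 units in Pr-HP, 45.6 in C4-HP and 46.1 in C4-LP, all under the floor of 67.3 units, and 231 units in Pr-LP. Id1 100050_at had another pattern again, with 1541 units in Pr-HP, 1201 in C4-HP and 926 in C4-LP against 121 in Pr-LP. Each value comes from 1 array, and no difference between these patterns was tested.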
